A study of Mus musculus with 10 samples.

Results

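The Fat4-Dchs1 and Yap pathway was read in E13.5 mouse kidneys as 10 genes, found by their symbols among the 35663 gene entries of the expression table. All 10 were found, each on 1 entry: *Fat4*, *Dchs1*, *Yap1*, *Wwtr1*, *Tead1*, *Lats2*, *Amotl2*, *Ankrd1*, *Ccn1* and *Ccn2*. RNA came from whole kidneys of C57/b6 embryos, as 4 Wild type libraries, 3 libraries of Foxd1-Cre embryos (Foxd1GC control) and 3 libraries of Foxd1-Cre; Ntn1c/c embryos (Ntn1SPKO). The comparison between the last 2 groups asks what changes in the kidney when the stroma loses Ntn1, a secreted guidance protein of the laminin family. Foxd1GC is a knock-in that makes a GFP-Cre fusion from the *Foxd1* locus in stromal progenitors, so both of these groups carry a modified *Foxd1* allele, and controls keep *Ntn1*. Recombination is limited to the stromal lineage, whereas RNA was taken from all cells of the organ. Levels are FPKM, fragments scaled by the length of the coding sequence and by the size of the library, so that they can be compared between genes. No label says whether libraries are separate embryos, so p-values measure only the spread between these libraries.

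Fat4 and Dchs1 are very large atypical cadherins that bind each other across neighbouring cells. In the Hippo pathway, the Stk3 and Stk4 kinases with Sav1 activate the Lats1 and Lats2 kinases, which phosphorylate the coactivators Yap1 and Wwtr1 (also called Taz) and keep them out of the nucleus. In the nucleus, Yap1 and Wwtr1 have no DNA-binding domain of their own and act through Tead factors, raising genes such as *Ccn1*, *Ccn2*, *Ankrd1*, *Amotl2* and *Lats2*, of which the last 2 encode proteins that restrain Yap1 in turn. In the kidney, Fat4 of the stroma and Dchs1 of nephron progenitors are known to act in a signal between these tissues that limits the progenitor pool. Activity of Yap1 is set largely by phosphorylation and location, which RNA levels do not show.

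Teads recognise the letters GGAATG, and these were searched on both strands (GGAATG or CATTCC, which do not overlap each other) in the 250 bases before each RefSeq start of GRCm38.p6. A window was held for 7 members, of which 5 had a match: *Yap1*, *Wwtr1*, *Amotl2*, *Ankrd1* and *Ccn1*. Of all 32851 windows, 12.6% had one. Positions are counted back from the start, with −1 the base before it, and name the first base of the match. Matches began at −141 for *Yap1*, at −136 or −170 for the 2 starts of *Wwtr1*, at −65 for *Amotl2* and at −103 for *Ccn1*. *Ankrd1* held 2, at −210 and −123. By the gene bounds given below, the windows of *Amotl2*, *Ankrd1* and *Lats2* lie inside the gene, before the RefSeq start but not before the gene. The windows of *Fat4* and *Lats2* held no such letters, and *Dchs1*, *Tead1* and *Ccn2* had no window. The stretches of *Ccn1* and *Ankrd1*, both widely used readouts of Yap1, are printed 5′ to 3′ on the gene's strand (minus in both), with the match in capitals. The first is chr3:145649986-145650235, and the others are chr19:36120037-36120066 and chr19:36119950-36119979.
Ccn1, 250 bases before the start: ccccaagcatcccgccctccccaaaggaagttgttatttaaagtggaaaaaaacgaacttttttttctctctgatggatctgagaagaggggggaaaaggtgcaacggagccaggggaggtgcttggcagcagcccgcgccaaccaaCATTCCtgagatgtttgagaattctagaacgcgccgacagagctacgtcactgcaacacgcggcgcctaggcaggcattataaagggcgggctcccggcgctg
Ankrd1, match at −210: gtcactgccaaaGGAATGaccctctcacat
Ankrd1, match at −123: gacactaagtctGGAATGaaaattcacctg
A match is a description of these letters and not a bound site.

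The labels and libraries were checked first. *Ntn1* was at 31.9, 28.3, 27.1 and 46.3 FPKM in Wild type replicates 1 to 4, at 40.7, 24.2 and 51.4 FPKM in Foxd1GC control replicates 1 to 3, and at 16.3, 13.1 and 10.7 FPKM in Ntn1SPKO replicates 1 to 3. All Ntn1SPKO libraries were thus below all others. *Foxd1* of the stroma (14.2 to 30.7 FPKM) and *Six2* of nephron progenitors (63.1 to 96.4 FPKM) were present in every library. Rough depth, from the smallest steps between low values, was 29.4 to 33.3 M fragments (M as in FPKM). Of 2 libraries that stand apart, Foxd1GC control replicate 3 had summed skeletal muscle markers of 1192 FPKM (69.3 to 284 FPKM in the others) and summed ureteric bud markers of 104 FPKM (251 to 323 FPKM in the others), and Wild type replicate 3 read low for genes with long coding sequences. Y-linked transcripts were present in Wild type replicate 3, Foxd1GC control replicate 2 and all 3 Ntn1SPKO libraries, so that embryo sex and group are largely confounded. Because whole kidneys were used, fewer cells of a type and less RNA per cell cannot be told apart.

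None of the 9 members that could be tested passed the test in any of the 3 comparisons. A gene was tested where its mean was at least 0.5 FPKM over the libraries compared, which left out *Ankrd1*, and was called where the adjusted p was under 0.1 and the groups differed by 2-fold or more. In limma's fit over all genes, 0 of 9 members were called between Ntn1SPKO and Foxd1GC control kidneys, where 0.055% of 14550 genes were. None of the 9 had an unadjusted p under 0.05 there (10.7% of all genes did), and 0 of the 9 had groups that did not overlap (19.9% of all genes). Between Ntn1SPKO and Wild type kidneys, 0 of 9 were called (0.0485% of 14432 genes), 1 had an unadjusted p under 0.05 (5.76%) and 0 had groups that did not overlap (7.1%). Foxd1GC control and Wild type kidneys also gave 0 of 9 called (0.00685% of 14594 genes), 1 under an unadjusted p of 0.05 (7.06%) and 0 not overlapping (8.09%). In the last 2 comparisons the gene under 0.05 was *Ccn2*. The share of members past 0.05 was below that of all genes between Ntn1SPKO and controls, and above it by this 1 gene of 9 in both comparisons with Wild type. The 3 comparisons share their libraries, so the values of a gene in them are not independent.

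**Figure D1:**
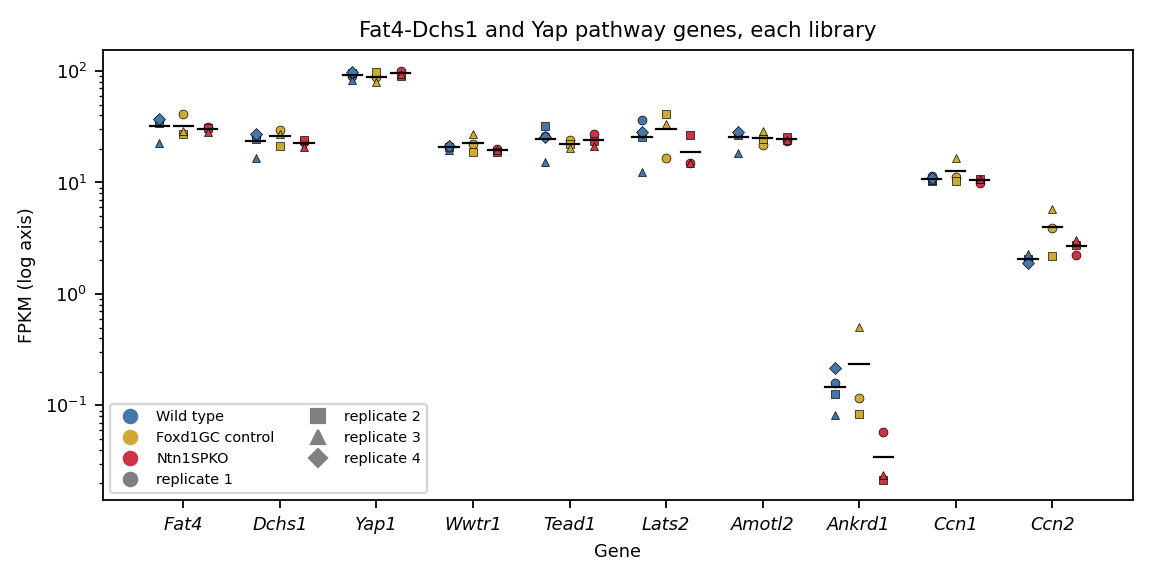
FPKM (log axis) of the 10 genes in each library. Colours mark the groups, symbols the replicate number and bars the group means. Groups overlap for every gene but *Ankrd1*, whose 3 Ntn1SPKO libraries (0.0215 to 0.0574 FPKM) lie below the other 7.

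By mean level over the 10 libraries, the order was *Yap1* (91.7 FPKM), *Fat4* (31.8), *Lats2* (25.0), *Amotl2* (25.0), *Dchs1* (24.1), *Tead1* (23.7), *Wwtr1* (20.9), *Ccn1* (11.3), *Ccn2* (2.82) and *Ankrd1* (0.140). *Yap1* stood above every other member in each library, and *Ccn1*, *Ccn2* and *Ankrd1* followed in that order below the rest in every library. The 6 genes from *Fat4* to *Wwtr1* overlapped, with the spread of each over libraries covering the mean of its neighbours in the order.

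*Fat4* lies on chromosome 3 of GRCm38 from 38886940 to 39011985 and has a coding sequence of 14943 bases. Its level was 36.2, 33.9, 22.4 and 36.9 FPKM in Wild type replicates 1 to 4, 41.4, 27.0 and 28.7 FPKM in Foxd1GC control replicates 1 to 3, and 31.5, 31.0 and 28.5 FPKM in Ntn1SPKO replicates 1 to 3. The Ntn1SPKO libraries fell inside the range of both other groups. Against controls the log2 fold change was −0.07 (95% interval −0.47 to 0.33, limma adjusted p=0.857), so a 2-fold change in either direction lies outside the interval. Against Wild type it was −0.07 (−0.47 to 0.33, adjusted p=0.961).

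*Dchs1*, which encodes the binding partner of Fat4, lies on chromosome 7 from 105752990 to 105787654, with a coding sequence of 9873 bases. Wild type replicates 1 to 4 had 26.0, 24.6, 16.7 and 27.0 FPKM, Foxd1GC control replicates 1 to 3 had 29.6, 21.3 and 27.2 FPKM, and Ntn1SPKO replicates 1 to 3 had 23.0, 24.1 and 21.0 FPKM. All 3 groups overlapped, with Ntn1SPKO at 22.7 ± 1.57 FPKM (mean ± SD, n=3) and controls at 26.1 ± 4.29 FPKM (n=3). The log2 fold change against controls was −0.19 (−0.51 to 0.13, limma adjusted p=0.530), and against Wild type it was −0.03 (−0.42 to 0.36, adjusted p=0.984). Levels of *Fat4* and *Dchs1* went up and down together, with a Pearson correlation of 0.88 over 10 libraries. This is given as a description, since Wild type replicate 3 and Foxd1GC control replicate 3 carry the coding-length pattern below. *Fat4* stood at 1.35 to 1.39 times *Dchs1* in Wild type and at 1.29 to 1.37 times in Ntn1SPKO libraries. Controls ranged wider, from 1.05 in replicate 3 to 1.40 in replicate 1.

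Of the 7 genes listed for the Fat and Dachsous family, 5 were tested against controls with limma, among them *Fat4*, *Dchs1* and the kinase gene *Fjx1*, and 0 passed the test or had an unadjusted p under 0.05. The median log2 fold change of these 5 was −0.18 (4 lower, 1 higher), and that of all genes tested was 0.01. *Fat1*, a close relative of *Fat4*, had 24.4 to 42.2 FPKM over the 10 libraries and a log2 fold change of 0.17 (−0.23 to 0.56, limma adjusted p=0.635). *Fat3* had 0.792 to 1.44 FPKM and a log2 fold change of −0.18 (−0.87 to 0.51, limma adjusted p=0.767). *Dchs2* (0.205 to 0.630 FPKM) and *Fat2* (0.0375 to 0.156 FPKM) were near the floor in all groups, so *Fat4*, *Fat1* and *Dchs1* made up nearly all of the summed FPKM of the cadherins in this list. *Fjx1*, a kinase of the Golgi that modifies Fat and Dachsous cadherins, had 7.83 to 10.9 FPKM.

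Both cadherins were among the genes that Wild type replicate 3 reads low. For 8 of the 10 members this library was the lowest of the 4 Wild type libraries, as it was for 34.9% of 14520 genes of that mean level. Among 573 genes with a coding sequence over 5000 bases, it was the lowest in 85.5%. Of the members only *Fat4* and *Dchs1* are that long, and the others have 957 (*Ankrd1*) to 3126 bases (*Lats2*). The median deviation of this library from the gene median over the 10 libraries went from 0.33 on the log2 scale for coding sequences up to 600 bases to −0.37 for those over 8000 bases. In between it was 0.07 for 600 to 1500 bases, −0.08 for 1500 to 3000 and −0.23 for 3000 to 5000. Why the shorter members read low in this library was not tested. Foxd1GC control replicate 3 showed a smaller slope of the same sign, from 0.08 to −0.21. Without Wild type replicate 3, the log2 fold change of *Fat4* between Ntn1SPKO and Wild type was −0.23 (limma adjusted p=0.424), and that of *Dchs1* was −0.19 (adjusted p=0.616). With the coding-length pattern taken off each library, they were −0.14 and −0.10, and against controls −0.14 and −0.26. None of these values passed the test. With the presence of Y-linked transcripts as a covariate, the difference from Wild type changed sign, to 0.43 for *Fat4* (adjusted p=0.0253) and 0.44 for *Dchs1* (adjusted p=0.0353), still under 2-fold. All Ntn1SPKO libraries hold Y-linked transcripts, and the only Wild type library that does is replicate 3, so this fit sets them against that library. Against controls the same covariate gave 0.17 and 0.09 (adjusted p=1 for both), resting in turn on control replicate 2.

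**Figure D2:**
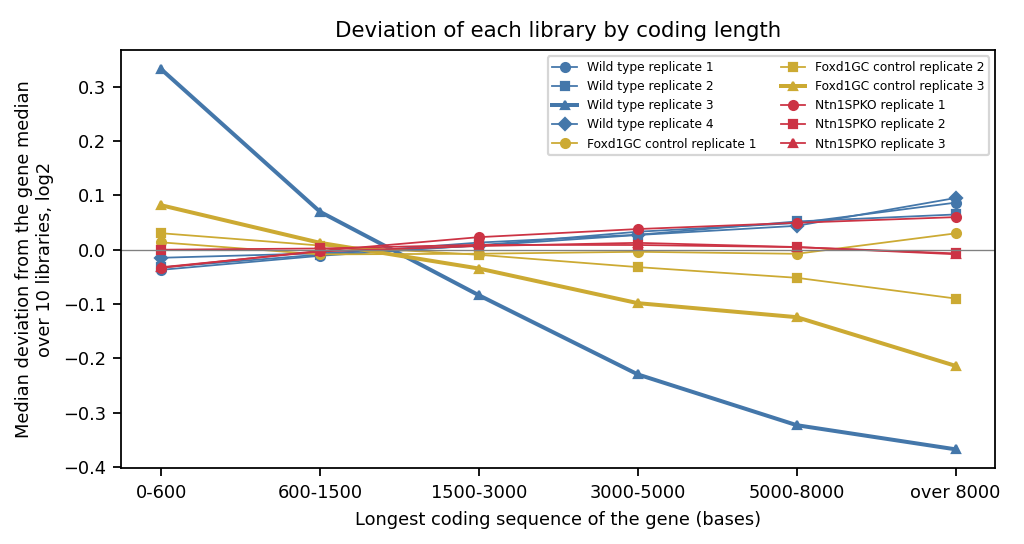
Median deviation of each library from the gene median over 10 libraries (log2 scale), by the longest coding sequence of the gene in bases. Wild type replicate 3 runs from 0.33 to −0.37 and Foxd1GC control replicate 3 from 0.08 to −0.21, while the other libraries stay between −0.09 and 0.10.

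*Yap1*, the coactivator, was the most abundant member and the steadiest. It lies on chromosome 9 from 7931999 to 8004596. Wild type replicates 1 to 4 had 90.2, 95.9, 83.5 and 98.0 FPKM, Foxd1GC control replicates 1 to 3 had 87.8, 97.5 and 79.3 FPKM, and Ntn1SPKO replicates 1 to 3 had 100.8, 90.2 and 94.2 FPKM. The highest library was a mutant and the lowest a control, but the groups overlapped. The log2 fold change against controls was 0.11 (−0.10 to 0.33, limma adjusted p=0.573) and against Wild type 0.05 (−0.13 to 0.23, adjusted p=0.956). Its SD within groups, pooled on the log2 scale, was 0.11.

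*Wwtr1*, which encodes Taz, the paralogue of Yap1, lies on chromosome 3 from 57455649 to 57575910. It had 21.3, 20.8, 19.6 and 21.3 FPKM in Wild type replicates 1 to 4, 22.0, 18.9 and 27.2 FPKM in Foxd1GC control replicates 1 to 3, and 20.1, 18.6 and 19.5 FPKM in Ntn1SPKO replicates 1 to 3. Control replicate 3 was the highest of the 10 libraries, and the rest lay between 18.6 and 22.0 FPKM. Against controls the log2 fold change was −0.21 (−0.53 to 0.12, limma adjusted p=0.501), or −0.07 without that library. *Yap1* exceeded *Wwtr1* by 4.23 to 4.62 times in Wild type, 2.92 to 5.17 times in control and 4.82 to 5.02 times in Ntn1SPKO libraries, so the mutant ratios lay inside the control range and above the Wild type range.

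*Tead1*, a DNA-binding partner of both coactivators, lies on chromosome 7 from 112679318 to 112906807. Its level was 25.9, 32.3, 15.2 and 25.7 FPKM in Wild type replicates 1 to 4, 24.1, 22.1 and 20.3 FPKM in Foxd1GC control replicates 1 to 3, and 27.0, 23.4 and 21.3 FPKM in Ntn1SPKO replicates 1 to 3. Wild type libraries alone spanned the full range of the other groups, with replicate 3 the lowest. The log2 fold change against controls was 0.10 (−0.16 to 0.37, limma adjusted p=0.658) and against Wild type −0.01 (−0.56 to 0.54, adjusted p=0.996). With Y-linked transcripts as a covariate, the latter was 0.64 (adjusted p=0.0639), a fit that sets Ntn1SPKO against Wild type replicate 3. The main Tead of this tissue by level was another one. *Tead2* had 282 to 324 FPKM, which was 8.92 to 20.1 times the level of *Tead1* in the same library. *Tead3* had 12.2 to 16.8 FPKM and *Tead4* 2.01 to 4.30 FPKM. Between Ntn1SPKO and controls, *Tead2* had a log2 fold change of −0.05 (−0.18 to 0.09, adjusted p=0.688).

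Of the 9 listed coactivators, Teads and Vgll cofactors, 9 were tested against controls with limma and 0 were called, with 3 higher and 6 lower and a median of −0.05. *Vgll2*, a cofactor of Teads known from skeletal muscle, was the 1 gene with an unadjusted p under 0.05 (0.0369), but it passed the filter on low values only through controls (mean 1.84 FPKM, against 0.0939 FPKM in Ntn1SPKO) and was not tested between Ntn1SPKO and Wild type. *Vgll2* had 0.901, 0.426, 0.324 and 0.245 FPKM in Wild type replicates 1 to 4, 1.13, 0.187 and 4.20 FPKM in Foxd1GC control replicates 1 to 3, and 0.0968, 0.0241 and 0.161 FPKM in Ntn1SPKO replicates 1 to 3. All Ntn1SPKO libraries were below all others, with a log2 fold change against controls of −2.63 (−5.04 to −0.22, limma adjusted p=0.447). Its relative *Vgll3* stood at 2.47 to 2.80 FPKM in Ntn1SPKO, 2.55 to 9.85 FPKM in control and 2.85 to 4.21 FPKM in Wild type libraries. Against Wild type its log2 fold change was −0.34 (adjusted p=0.856), and these 2 groups did not overlap. *Tead4* was the other way, at 0.36 against Wild type (adjusted p=0.947). In *Vgll2* and *Vgll3*, the highest of the 10 libraries was Foxd1GC control replicate 3, which is also the highest in skeletal muscle markers, and the part of these markers was not tested.

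*Lats2*, the kinase that phosphorylates Yap1 and is itself a Yap1 target, was the most variable member with a sizeable level. It lies on chromosome 14 from 57689662 to 57758388. Wild type replicates 1 to 4 had 36.4, 25.5, 12.5 and 28.1 FPKM, Foxd1GC control replicates 1 to 3 had 16.4, 41.0 and 33.4 FPKM, and Ntn1SPKO replicates 1 to 3 had 15.1, 26.8 and 15.0 FPKM. Each group held both low and high libraries, and Ntn1SPKO (18.9 ± 6.78 FPKM, n=3) overlapped controls (30.3 ± 12.6 FPKM, n=3). The log2 fold change of −0.63 against controls had an interval from −1.56 to 0.31 (limma adjusted p=0.489), so that a fall of more than 2-fold and no change are both inside it. It was −1.02 without Foxd1GC control replicate 1, −0.36 without control replicate 2, and −1.17 with Y-linked transcripts as a covariate. Against Wild type it was −0.39 (−1.26 to 0.48, adjusted p=0.947). Pooled over groups, its SD was 0.62 on the log2 scale, larger than that of 98.4% of 7036 genes with a mean of 10 to 100 FPKM. Its level relative to *Lats1* was 0.583 to 1.12 in Ntn1SPKO, 0.769 to 1.85 in control and 0.679 to 1.59 in Wild type libraries. No other gene followed *Lats2* closely: the 5 with the highest Pearson correlation over the 10 libraries, *Ier5l*, *Zfp64*, *Usp13*, *Gm49111* and *Nkain1*, reached 0.85 to 0.87, where the first neighbour of each other member reached 0.93 to 0.99.

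*Amotl2*, an angiomotin-like scaffold at cell junctions that binds and restrains Yap1, lies on chromosome 9 from 102716672 to 102733418. It had 28.0, 26.6, 18.5 and 28.4 FPKM in Wild type replicates 1 to 4, 21.7, 24.4 and 28.9 FPKM in Foxd1GC control replicates 1 to 3, and 23.6, 25.7 and 24.1 FPKM in Ntn1SPKO replicates 1 to 3. Ntn1SPKO libraries lay inside the control range. Its log2 fold change was −0.02 against controls (−0.30 to 0.25, limma adjusted p=0.931) and −0.03 against Wild type (−0.39 to 0.32, adjusted p=0.980). With Y-linked transcripts as a covariate the latter was 0.40 (adjusted p=0.0239), again set against Wild type replicate 3 alone.

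All 21 listed Hippo kinases, adaptors and upstream proteins were tested against controls with limma, 0 were called and 1 had an unadjusted p under 0.05. Their median log2 fold change was 0.06, with 15 higher and 6 lower, where 48.8% of all genes tested were lower. Foxd1GC control replicate 3 was the lowest of the 10 libraries for *Map4k4* (143 FPKM), *Wwc1* (9.92 FPKM) and *Ptpn14* (13.8 FPKM), among others. It was the highest for 4 of the 21 genes. The part of this library in the lean towards higher values was not tested. In 5 of the 21 the groups did not overlap, all of them higher in Ntn1SPKO, where 19.9% of all genes did not overlap. These were *Lats1*, *Stk3*, *Wwc2*, *Ptpn14* and *Limd1*, of which *Lats1*, *Stk3*, *Ptpn14* and *Limd1* are named here after their values were seen. *Lats1* had 25.9, 23.9 and 22.2 FPKM in Ntn1SPKO replicates 1 to 3 and 21.4, 22.1 and 18.5 FPKM in Foxd1GC control replicates 1 to 3. Wild type libraries had 18.4 to 24.6 FPKM, and covered most of both. The gene under 0.05 was *Map4k4*, a kinase that can act on Lats beside Stk3 and Stk4, at 0.27 on the log2 scale (0.01 to 0.53, unadjusted p=0.0434, limma adjusted p=0.447). *Wwc2* at 0.17 (adjusted p=0.447) and *Wwc1* at 0.38 (adjusted p=0.447) came next among the higher genes. *Wwc1* encodes the Kibra scaffold and *Wwc2* a relative of it. *Frmd6* at −0.17 (adjusted p=0.527) was among the lower ones. Against Wild type, 17 of 21 were higher, where 48.9% of all genes tested were lower, and 0 were called (0 under an unadjusted p of 0.05). The median was 0.05, with *Limd1* at 0.15 and *Frmd6* at −0.17 (adjusted p=0.947 for both). The part of Wild type replicate 3, which reads low for long coding sequences, was not tested here. Between controls and Wild type the median was −0.02, with *Wwc1* at −0.28 and *Mob1b*, an activator of Lats kinases, at −0.20 (adjusted p=0.665 for both).

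**Figure D3:**
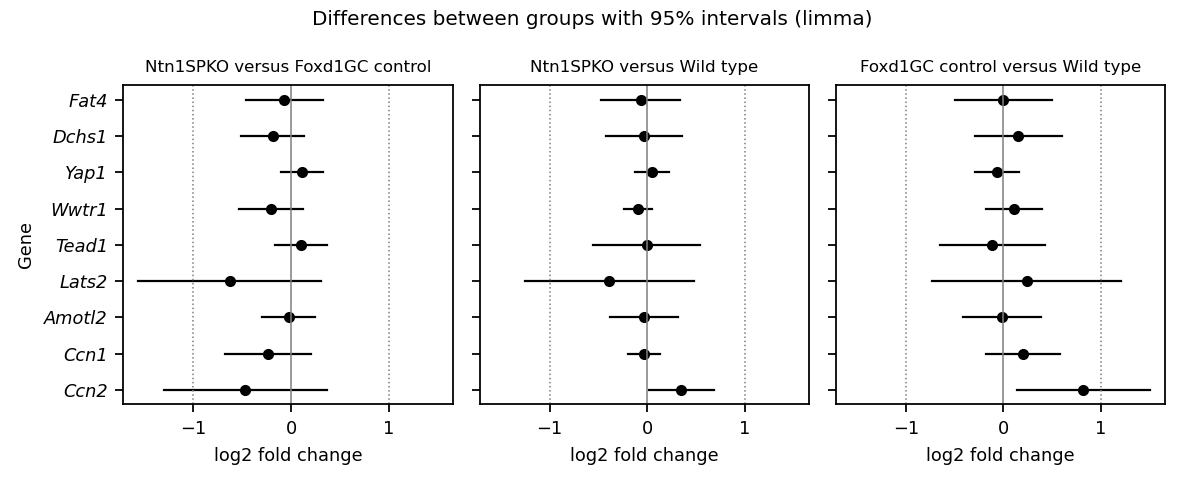
Log2 fold change of the 9 tested members (points) with limma's 95% interval (bars) in the 3 comparisons. The dotted lines mark a 2-fold change. The interval of *Ccn2* leaves out 0 in both comparisons with Wild type (0.35 and 0.82), and none of the values passed the adjusted test.

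*Ccn2* (also called Ctgf), a secreted matrix-associated protein and target of Yap1, had the lowest unadjusted p of the 9 tested members in both comparisons with Wild type. It lies on chromosome 10 from 24595442 to 24598683. Its level was 2.01, 2.04, 2.29 and 1.90 FPKM in Wild type replicates 1 to 4, 3.93, 2.21 and 5.82 FPKM in Foxd1GC control replicates 1 to 3, and 2.22, 2.74 and 3.06 FPKM in Ntn1SPKO replicates 1 to 3. Wild type was low and tight, controls were high in replicates 1 and 3, and Ntn1SPKO lay between. Foxd1GC control kidneys were higher than Wild type by a log2 fold change of 0.82 (0.14 to 1.50, unadjusted p=0.0244), which did not pass adjustment (limma adjusted p=0.665). Ntn1SPKO kidneys were higher than Wild type by 0.35 (0.02 to 0.69, unadjusted p=0.0421, adjusted p=0.831). The exact permutation p, two-sided, was 0.114 in both, where the smallest that 3 against 4 libraries allow is 0.0571. Against controls the difference had the other sign, −0.47 (−1.30 to 0.37, adjusted p=0.540), and was −0.15 without Foxd1GC control replicate 3, −0.83 without control replicate 2, and 0.25 with Y-linked transcripts as a covariate. Without control replicate 3, controls exceeded Wild type by 0.50.

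The 3 libraries highest in *Ccn2* were also the 3 highest in markers of blood. Summed erythroid markers, 9 genes led by globins, were 16140 FPKM in Foxd1GC control replicate 1, 18110 FPKM in control replicate 3 and 18638 FPKM in Ntn1SPKO replicate 3, and 4779 to 10812 FPKM in the other 7 libraries. The order was not the same in both. Ntn1SPKO replicate 3 had the highest erythroid sum but 3.06 FPKM of *Ccn2*, against 5.82 FPKM in control replicate 3. Ntn1SPKO replicate 2, the next in *Ccn2* at 2.74 FPKM, had an erythroid sum of 5711 FPKM. All 9 erythroid markers were higher in controls than in Wild type, with a median log2 fold change of 1.04. Each had an unadjusted p under 0.05 in limma, as did 7.06% of all genes tested. None passed adjustment (limma adjusted p=0.665 for each). The part of blood content in the difference of *Ccn2* was not tested.

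Other CCN genes, which encode a family of secreted matricellular proteins, shared the pattern of *Ccn2* in the control libraries. *Ccn3* had 5.44, 2.04 and 8.90 FPKM in Foxd1GC control replicates 1 to 3, against 1.58 to 2.29 FPKM in Wild type and 1.98 to 3.11 FPKM in Ntn1SPKO libraries. Its log2 fold change between controls and Wild type was 1.17 (0.15 to 2.19, limma adjusted p=0.665). *Ccn4* had 6.02, 3.64 and 7.80 FPKM in the same controls, against 3.54 to 4.28 FPKM and 3.19 to 4.44 FPKM. In both, as in *Ccn2*, control replicates 1 and 3 were the highest of the 10 libraries. Of the 6 family genes, 4 were tested, and all 4 were higher in controls than in Wild type (median 0.66) and lower in Ntn1SPKO than in controls (median −0.52), with 0 called by limma in either comparison and, in turn, 2 and 0 under an unadjusted p of 0.05. Of all genes tested, 51.6% were lower in controls than in Wild type and 48.8% were lower in Ntn1SPKO than in controls. In turn, 7.06% and 10.7% of all genes were under 0.05. The 2 comparisons share the controls. For *Ccn1*, 1 of the 4, the log2 fold changes were −0.007 and −0.03 without control replicate 3. *Ccn5* and *Ccn6* were under 0.1 FPKM in every library. The genes that followed *Ccn2* most closely over the 10 libraries were *Cxcl12*, *Rtn4r*, *Fbln5*, *Sparc* and *Ccn3*, with Pearson correlations of 0.96 to 0.99. These correlations are a description, and control replicates 1 and 3 carry much of the range.

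*Ccn1* (also called Cyr61), the other secreted CCN protein among the members, lies on chromosome 3 from 145646976 to 145649981. Wild type replicates 1 to 4 had 11.3, 10.2, 10.5 and 11.0 FPKM, Foxd1GC control replicates 1 to 3 had 11.1, 10.3 and 16.6 FPKM, and Ntn1SPKO replicates 1 to 3 had 9.96, 10.7 and 10.8 FPKM. Except for control replicate 3, the 10 libraries lay between 9.96 and 11.3 FPKM. The log2 fold change of −0.24 against controls (−0.68 to 0.20, limma adjusted p=0.557) shrank to −0.03 without that library. Against Wild type it was −0.03 (−0.20 to 0.13, adjusted p=0.956). *Fzd8*, a Wnt receptor, had the pattern most like *Ccn1*, with a Pearson correlation of 0.99 over the 10 libraries, followed by *Lix1l*, *Fkbp10*, *Cdkn1c* and *Glipr2* at 0.97. *Ccn1* and *Ccn2* did not move in parallel everywhere: their ratio was 4.56 to 5.81 in Wild type, 2.83 to 4.67 in control and 3.54 to 4.49 in Ntn1SPKO libraries.

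*Ankrd1*, a nuclear ankyrin-repeat protein abundant in striated muscle and a target of Yap1, was the 1 member in which the Ntn1SPKO libraries stood apart, at a level near the floor. It lies on chromosome 19 from 36111961 to 36120099. Wild type replicates 1 to 4 had 0.160, 0.126, 0.0827 and 0.218 FPKM, Foxd1GC control replicates 1 to 3 had 0.116, 0.0836 and 0.509 FPKM, and Ntn1SPKO replicates 1 to 3 had 0.0574, 0.0215 and 0.0239 FPKM. All 3 Ntn1SPKO libraries were below all 7 others, in 1 of 10 members, where 19.9% of all tested genes did not overlap between Ntn1SPKO and controls and 7.1% between Ntn1SPKO and Wild type. At the rough depths, these values stand for about 0.533 to 1.45 fragments in Ntn1SPKO libraries and 2.09 to 11.3 in the others, so counting error alone is large. The difference in mean log2(FPKM+0.1) was −1.12 from controls and −0.86 from Wild type, but it depends on the pseudocount: −0.24 and −0.15 with 1, and −2.14 and −1.84 with 0.01. The exact permutation p, two-sided, was 0.1 and 0.0571, in each case the smallest that the design allows. In a limma fit with no filter the adjusted p was 0.550 and 0.566. The gap to controls narrowed to −0.58 on the log2 scale without Foxd1GC control replicate 3.

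**Figure D4:**
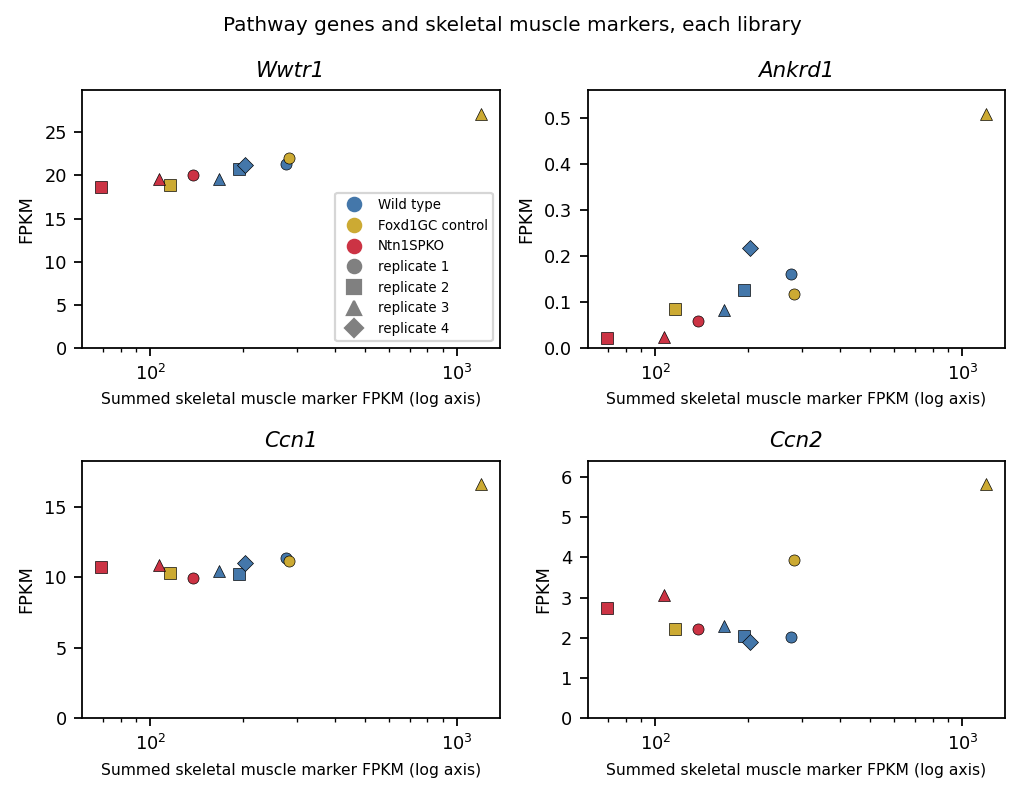
FPKM of *Wwtr1*, *Ankrd1*, *Ccn1* and *Ccn2* in each library against summed FPKM of 19 skeletal muscle markers (log axis). Colours mark groups and symbols replicate numbers. Foxd1GC control replicate 3, at 1192 FPKM of markers, is the highest library in all 4 plots, and *Wwtr1* and *Ankrd1* climb with the markers among the other 9 as well.

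Skeletal muscle markers moved with several of these genes. Their sum over 19 genes was 168 to 277 FPKM in Wild type, 116 to 1192 FPKM in control and 69.3 to 138 FPKM in Ntn1SPKO libraries. *Myog* and *Myod1*, which define the lineage, were above 0 in every library, and *Myf5*, *Myf6* or *Ankrd2* were listed at 0 in some. All 16 markers tested were lower in Ntn1SPKO than in controls (median log2 fold change −2.44), where 48.8% of all genes tested were. Of the 16, 6 had an unadjusted p under 0.05 in limma (10.7% of all genes) and 0 were called. *Chrna1*, *Mymk* and *Myod1* had Ntn1SPKO means of 0.0990, 0.129 and 0.302 FPKM. They passed the filter on low values only through controls, which favours a lower value in Ntn1SPKO. Over the 10 libraries, the log2 sum of the markers correlated with *Wwtr1* at r=0.98 and rho=0.98 (permutation p=3e-05 and 4e-05, adjusted over 10 members 0.0003 and 0.0004). Leaving out the 2 libraries farthest from the median of the markers, Foxd1GC control replicate 3 and Ntn1SPKO replicate 2, r was 0.92 (n=8). For *Ankrd1* r was 0.93 and rho 0.88 (permutation p=0.0003 and 0.00158, adjusted 0.0015 and 0.0079), and r was 0.75 without the same libraries. *Ccn1* gave r=0.86 and rho=0.64 (permutation p=0.0136 and 0.0548, adjusted 0.0454 and 0.137), but r fell to 0.61 without them and was 0.41 without control replicate 3 alone, so this relation rests on that library. For *Ccn2*, r=0.62 and rho=0.05 did not pass (permutation p=0.0702 and 0.890, adjusted 0.140 and 0.890). *Dchs1* had rho=0.78 (permutation p=0.0103, adjusted 0.0343) but r=0.48 (permutation p=0.164, adjusted 0.273). The other 5 members had an adjusted permutation p of at least 0.124 for both measures. The marker list was chosen with earlier results of these data known. The permutations also ignored the groups, which differ in the markers too. These p-values are therefore a description and not an independent test. With the mean of each group taken off both measures, r was 0.98 for *Wwtr1* (0.94 without control replicate 3), 0.90 for *Ankrd1* (0.57 without it), 0.88 for *Ccn1* (0.33) and 0.78 for *Ccn2* (0.40), given as a description over 10 and 9 libraries.

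The nearest patterns were read for every member. Closest to *Wwtr1* were *Hjv*, *Pgam2*, *Vgll3*, *Tnnt2* and *Atp2a1*, with Pearson correlations of 0.98 over the 10 libraries. *Pgam2*, *Tnnt2* and *Atp2a1* are known as genes of striated muscle. Closest to *Ankrd1* were *Klhl29*, *Trim55*, *Txlnb*, *Tmtc4* and *Mymk*, at 0.95 to 0.97. *Mymk*, the fusion protein of myoblasts, is in the list of skeletal muscle markers. Whether muscle content accounts for the level of either gene was not tested. Closest to *Fat4* were *Nyap1*, *Dync1h1* and *Vcan* (0.94 to 0.96), then *Phactr2* and *Ubr4*, and closest to *Dchs1* were *Rusc2*, *Fbn2*, *Ptprd*, *Sh3pxd2a* and *Ttl* (0.94 to 0.95). For *Yap1* they were *Gm14226*, *Arfgef1*, *Cul4a*, *Crybg3* and *Topors* (0.94 to 0.96), for *Tead1* *Cep120*, *Osbpl8*, *Med13*, *Tnrc6a* and *Etv3* (0.95 to 0.97), and for *Amotl2* *Fam102a*, *Icmt*, *Kifc5b*, *Nes* and *Csnk1e* (0.89 to 0.93).

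A signature of 22 genes known as targets of Yap1 was read as a whole. Of these, 19 were tested against controls with limma, 0 were called and 2 had an unadjusted p under 0.05. Their median log2 fold change was −0.13, from 11 genes lower in Ntn1SPKO and 8 higher. Groups did not overlap in 4 of the 19, with 2 in each direction, where 19.9% of all genes did not overlap. Without Foxd1GC control replicate 3 the median was −0.03. Against Wild type, 9 were higher and 10 lower (median −0.01), and controls against Wild type gave 12 higher and 7 lower (median 0.11), with 0 called and 2 under an unadjusted p of 0.05 in each. The summed FPKM of the signature was 391 to 411 FPKM in Ntn1SPKO libraries, inside both the control (390 to 505 FPKM) and the Wild type range (335 to 446 FPKM).

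**Figure D5:**
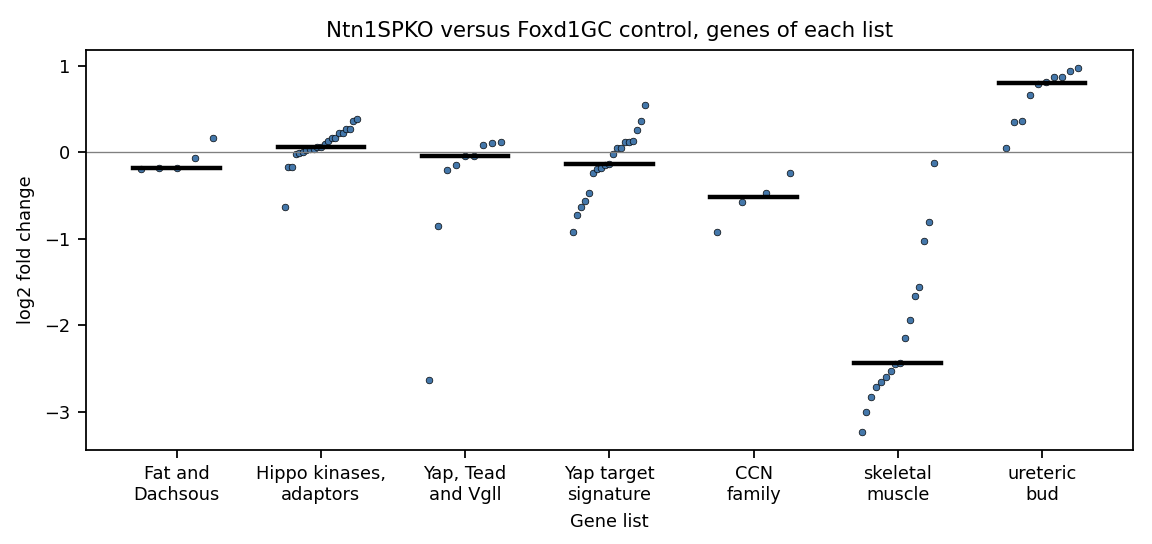
Log2 fold change between Ntn1SPKO and Foxd1GC control kidneys for the tested genes of 5 pathway lists and 2 marker lists (points) with the list median (bars). Medians of the pathway lists lie between −0.52 and 0.06, those of skeletal muscle markers at −2.44 and of ureteric bud markers at 0.80.

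Within the signature, genes moved in both directions. *Tgfb2*, a secreted growth factor, was the lowest, with 13.7, 13.2 and 13.8 FPKM in Ntn1SPKO replicates 1 to 3. Foxd1GC control replicates 1 to 3 had 27.6, 15.9 and 39.4 FPKM and Wild type replicates 1 to 4 had 18.4, 16.7, 16.7 and 22.7 FPKM, so that every Ntn1SPKO library was below all others. Its log2 fold change was −0.93 against controls (−1.67 to −0.19, unadjusted p=0.0219, limma adjusted p=0.447) and −0.44 against Wild type (−0.71 to −0.18, unadjusted p=0.00514, adjusted p=0.442). *Nuak2*, a kinase of the AMPK family, was at 0.512 to 0.618 FPKM in Ntn1SPKO and 0.688 to 1.19 FPKM in control libraries, a log2 fold change of −0.72 (adjusted p=0.447). On the other side, *Asap1*, a regulator of Arf proteins, had 60.3, 45.5 and 64.4 FPKM in Ntn1SPKO replicates 1 to 3 and 44.5, 36.4 and 34.8 FPKM in Foxd1GC control replicates 1 to 3, which is 0.55 on the log2 scale (0.17 to 0.93, unadjusted p=0.0117, adjusted p=0.447). Wild type libraries covered 39.7 to 69.6 FPKM, most of the range of both, and controls differed from Wild type by −0.43 (adjusted p=0.665). *Igfbp3*, which binds insulin-like growth factors, was higher in controls than in Wild type by 0.71 (0.16 to 1.26, unadjusted p=0.0185, adjusted p=0.665), with control replicate 3 at 96.6 FPKM, replicates 1 and 2 at 62.5 and 44.2 FPKM and Wild type at 36.1 to 45.7 FPKM.

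Genes of early growth responses and of the cytoskeleton were read beside the CCN members. Of 16 immediate early genes such as *Fos* and *Egr1*, 13 were tested against controls, with 4 higher, 9 lower and a median log2 fold change of −0.13, and limma called 0, with 0 under an unadjusted p of 0.05. Of 16 Srf-dependent cytoskeleton genes, 15 were tested, with 5 higher, 10 lower and a median of −0.13, and 0 were called, with 1 under an unadjusted p of 0.05. Their parts in the levels of *Ccn1* and *Ccn2* were not tested. Cortical stroma markers, where *Fat4* is known to act, gave 3 higher and 7 lower of 10 (median −0.10). Nephron progenitor markers gave 7 higher and 4 lower of 11 (median 0.07). In each list 0 were called and 1 had an unadjusted p under 0.05. For the stroma list that gene was *Ntn1*, the deleted gene (log2 fold change −1.48), so this result follows from the genotype. *Foxd1*, the locus of the knock-in, was also among the 7 lower stroma markers (−0.41). Between Ntn1SPKO and Wild type, *Foxd1* had −0.72 on the log2 scale (limma adjusted p=0.193), with both Cre groups carrying the knock-in, and *Six2* had 0.24 (adjusted p=0.947).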

How the data were processed

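Whole-kidney RNA-seq of E13.5 embryos was read for 10 libraries (4 Wild type, 3 Foxd1GC control, 3 Ntn1SPKO), grouped by the deposited labels. According to the methods and processing notes, the authors made fastq files with bcl2fastq 2.17.1.14, ran Salmon (version not given in the sources used here) on coding sequences of Ensembl GRCm38, and used tximport and DESeq2. The deposited values are FPKM, not counts, already scaled between libraries by the authors: median-of-ratios factors were equal in all 10. Counts could not be recovered, so depth is rough.

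The fit used limma 3.58.1 (R 4.3.3) on log2(FPKM+0.1), for genes whose mean reached 0.5 FPKM (intensity trend, Benjamini-Hochberg over all genes, only the groups compared). Fold changes are on this scale, which understates those of low genes. Single members also had exact permutation tests, two-sided as double the smaller tail (SciPy 1.17.1), and correlations with muscle markers a permutation test of 100000 resamples. Lists are described by counts and medians, with no test. All members are named, with *Ntn1*, *Foxd1* and *Six2*, called pathway genes, the 3 pathway genes of lowest p in each direction and comparison, and the 5 nearest patterns of each member. Members and lists were chosen with earlier results of these data known.

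Coordinates and coding lengths are from GENCODE M21 (GRCm38), promoter sequences from RefSeq (GRCm38.p6). Same-numbered libraries did not deviate together (correlations −0.04 to 0.08), so replicate numbers do not pair them. Alternatives were the pseudocount, filter, scaling, variance model, samples fitted, replicate block, Y-linked transcripts as a covariate (*Xist*, planned beside them, was not used here), thresholds and leaving out each library. A coding length correction and the marker correlations with group means removed were added after seeing the data. The fit was checked on simulated data.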

Additional observations from a re-analysis of the deposited data

Results flagged for a closer look

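*Fat4* and *Amotl2* were flagged in Wild type kidneys because 1 library lay far from the others. In both the lowest library was Wild type replicate 3, at 22.4 FPKM for *Fat4* (33.9 to 36.9 FPKM in the other 3) and 18.5 FPKM for *Amotl2* (26.6 to 28.4 FPKM in the other 3). On the log2(FPKM+0.1) scale, its gap to the nearest library was 0.8311 of the whole range of the group for *Fat4* and 0.8453 for *Amotl2*, above Dixon's critical value at the 95% level for 4 samples. On the FPKM scale the shares were 0.795 and 0.816, below that value, so both depend on the scale. Chance flags about 1 in 20 groups. The coding sequences are 14943 and 2415 bases long, and the slope of this library with coding length is given above. For coding sequences of 1500 to 3000 bases, as in *Amotl2*, the median deviation of this library was −0.08.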

How the results depend on the processing

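No member was called under any setting, and in the fits as reported limma's count of members under an unadjusted p of 0.05 was 0 of 9 between Ntn1SPKO and controls and 1 of 9 in each comparison with Wild type. Depth limits *Ankrd1*, at a few fragments a library. Genes called over the whole table changed most. Between Ntn1SPKO and controls they went from 8 to 21 with no filter, to 0 with all 10 libraries in 1 fit, to 4 with the covariate for Y-linked transcripts and to 4 with the replicate block, and ranged from 3 (without Ntn1SPKO replicate 2) to 78 (without Foxd1GC control replicate 2) over the fits without 1 library. Between Ntn1SPKO and Wild type they went from 7 to 2 with a pseudocount of 1, 18 with no filter, 12 with no intensity trend, 0 with all 10 libraries and 187 with the covariate, and ranged from 1 to 20 over the fits without 1 library. Between controls and Wild type the 1 gene became 2 with a pseudocount of 1 or 0.01, 9 with no filter, 4 with no intensity trend and 0 with all 10 libraries, and 3 to 20 without 1 library. With the covariate, the comparison with Wild type sets Ntn1SPKO against Wild type replicate 3 alone, the library with the strongest coding-length pattern. Against controls it rests in turn on Foxd1GC control replicate 2. The causes of the other changes in these counts were not tested.

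With the covariate, the signature median between Ntn1SPKO and controls became 0.0363, and the sign turned for *Fat4* (0.167), *Dchs1* (0.0887), *Yap1* (−0.0385), *Wwtr1* (0.0396), *Amotl2* (0.00185), *Ccn1* (0.0257) and *Ccn2* (0.252), and against Wild type for *Fat4* (0.431), *Dchs1* (0.441), *Tead1* (0.642), *Lats2* (0.539), *Amotl2* (0.398) and *Ccn1* (0.00524), where limma's adjusted p was under 0.1 for *Fat4* (0.0253), *Dchs1* (0.0353), *Tead1* (0.0639) and *Amotl2* (0.0239). Between controls and Wild type it gave 0.0429 for *Fat4* and 0.0171 for *Amotl2*. Scaling to the same FPKM total turned *Amotl2* against controls (0.0120), *Dchs1* (0.0228), *Tead1* (0.0492), *Amotl2* (0.0221) and *Ccn1* (0.0208) against Wild type, and *Fat4* (0.0197) and *Amotl2* (0.0101) between controls and Wild type, where quantile normalization gave *Fat4* 0.00485 and the coding length correction 0.00759. The replicate block gave 0.00410 for *Fat4*, 0.0407 for *Dchs1*, 0.0277 for *Tead1* and 0.0268 for *Amotl2* against Wild type. Between controls and Wild type it gave 0.0716 for *Fat4* and 0.0507 for *Amotl2*, and it called none of the members. Only Wild type has a replicate 4, so the block sets that library aside. These values are therefore the same as those without Wild type replicate 4, and not a separate check.

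Leaving out each library in turn, Ntn1SPKO against controls ranged from −0.120 to 0.0848 for *Amotl2* and −0.185 to 0.123 for *Fat4*. Against Wild type the ranges were −0.178 to 0.0268 for *Amotl2*, −0.0580 to 0.00353 for *Ccn1*, −0.191 to 0.0407 for *Dchs1*, −0.234 to 0.00410 for *Fat4* and −0.223 to 0.138 for *Tead1*. Between controls and Wild type they were −0.154 to 0.0860 for *Amotl2*, −0.00729 to 0.333 for *Ccn1*, −0.00370 to 0.292 for *Dchs1*, −0.191 to 0.117 for *Fat4*, −0.0704 to 0.628 for *Lats2*, −0.327 to 0.0331 for *Tead1*, −0.0260 to 0.236 for *Wwtr1* and −0.137 to 0.0124 for *Yap1*.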
